A study of Bos taurus and Sus scrofa with 10 samples.

Results

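The genes described here encode the proteins of the mitochondrial ribosome (mitoribosome), followed from the oocyte to the blastocyst in cow (Bos taurus) and pig (Sus scrofa). Members were taken by symbol, as every gene whose name begins with MRPL or MRPS and a number, and where a symbol was listed more than once the row with the highest mean level was kept. The cow table held 77 members among 20799 gene symbols, and the pig table held 54 among 20502. All 54 pig symbols were also in the cow table, and the other 23 cow members were not analysed here in pig. The study profiled RNA alongside DNA methylation in preimplantation embryos of both species, and the RNA series covered the oocyte, the embryo at 2-4 and at 8-16 cells, the morula and the blastocyst of each. With 10 libraries for 10 combinations of stage and species, replicate spread is unknown, and no p-values are given. The labels give a stage and a species for each library, without breed, animal, way of producing the embryos or number of embryos per library, and no treatment.

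Mitochondria keep a small genome of their own, and the few proteins it encodes, all of them core parts of the respiratory chain or the ATP synthase, are made on the mitoribosome. Its RNA comes from the mitochondrial genome, while every one of its proteins is encoded in the nucleus, made in the cytosol and imported. Some of these proteins have counterparts in the bacterial ribosome and others were added in the mitochondrial lineage. The mitochondria of the early embryo are inherited from the oocyte, which holds a large store of them and of maternal transcripts. The embryo's own genome becomes active during the first cleavages, and maternal transcripts are cleared over the same period.

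Levels are reads per 1000000 library reads (RPM) without a correction for gene length, so each value compares a gene between stages and not with another gene. Library totals ran from 3002751 reads (pig morula) to 14182046 reads (cow blastocyst), and intervals given below are 95% intervals for counting error only. Of the oocyte markers fixed for this comparison (among them ZP2, BMP15 and GDF9), 12 of 12 in cow and 10 of 11 in pig were lower in the blastocyst than in the oocyte by the 4-fold rule given below, and of the blastocyst markers (among them KRT8 and KRT18) 10 of 11 and 11 of 12 were higher. Summed oocyte markers in the 8-16 cell library stood at 793 RPM in cow, from 6120 RPM in the oocyte, and at 3638 RPM in pig, from 7276 RPM. Markers of cumulus cells, which surround the oocyte, summed to 49.2 to 353 RPM in cow, highest in the oocyte, where AMH, FOXL2, INHA and LHCGR had no read, and to 88.9 to 343 RPM in pig, highest in the morula and mostly VCAN. From oocyte to blastocyst 2 of 8 of them were higher and 4 lower in cow, and 2 of 5 higher and 1 lower in pig, and their part in the members' values was not tested. Reads of the mitochondrial chromosome took 2.74% to 30.2% of the library in cow, highest in the blastocyst, and 6.06% to 18.6% in pig, also highest in the blastocyst.

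In cow the members together took 1545, 1824, 1930, 2255 and 1782 RPM, in order of the stages from oocyte to blastocyst. In pig the same sum was 1102, 641, 749, 1939 and 2264 RPM. The cow sum thus moved within a narrow band, while the pig sum was lowest at the 2-4 and 8-16 cell stages and more than doubled between the 8-16 cell embryo and the morula, by 2.59-fold (2.47 to 2.72). From oocyte to blastocyst the sum was 1.15-fold higher in cow (1.12 to 1.18) and 2.06-fold higher in pig (1.98 to 2.14). Leaving mitochondrial reads out of the library totals gave 1.58-fold and 2.37-fold. The cow blastocyst value therefore depends on its large mitochondrial share. From morula to blastocyst the cow sum turned from 0.790-fold to 1.03-fold with those reads left out. Another scale takes only the reads in gene rows outside the mitochondrial chromosome as the total. On it the cow sum was 3608 RPM in the morula and 3473 RPM in the blastocyst, still lower in the blastocyst. A smaller number of cells and less RNA per cell cannot be told apart in these values, which are shares of each library's reads.

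The level of the median member was 7.30, 10.4, 10.9, 14.4 and 21.0 RPM from oocyte to blastocyst in cow, and 9.92, 5.19, 10.4, 24.3 and 33.2 RPM in pig. Reads were also spread over more members at the end. The 5 highest members held 40.9% of the members' reads in the cow oocyte and 21.4% in the cow blastocyst, and 41.8% and 29.0% in pig. In the cow oocyte 31 of 77 members reached 10 RPM, against 56 of 77 in the cow blastocyst; in pig the counts were 27 and 48 of 54. Every library but the pig blastocyst had members without a read, from 1 member in the 3 latest cow libraries to 5 members in the 2 earliest cow libraries and the pig 2-4 cell library.

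**Figure D1:**
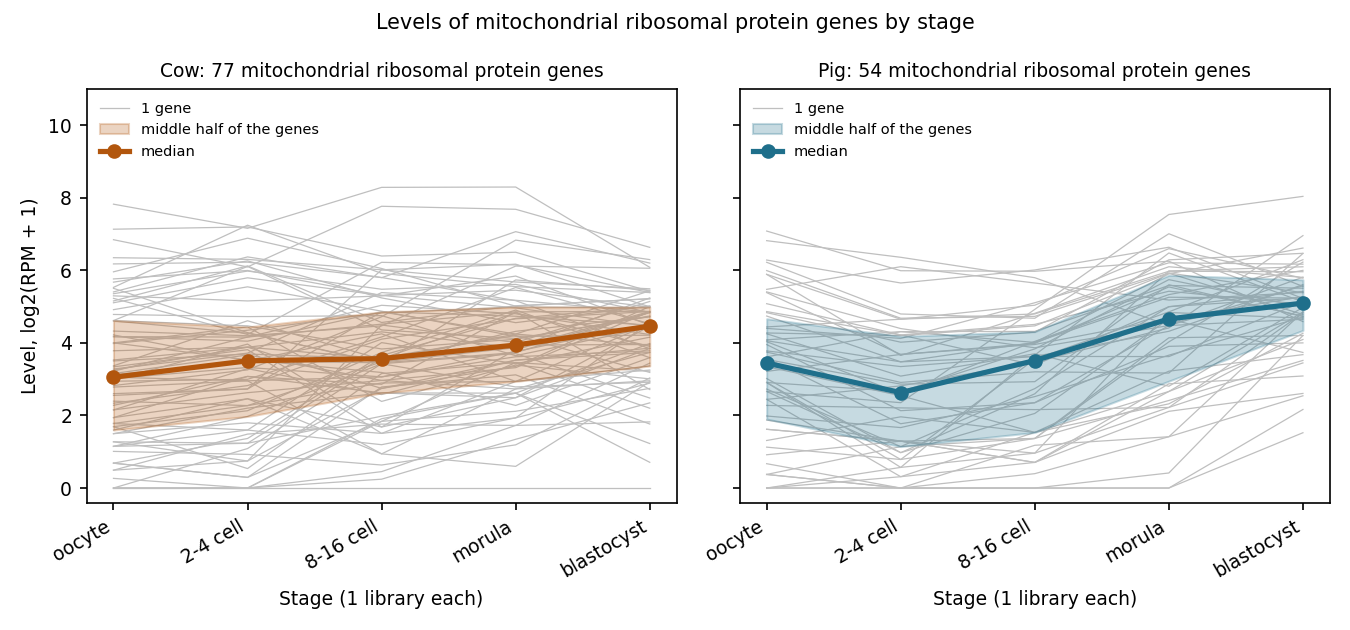
Level of each member by stage, in log2(RPM + 1), in cow (77 genes) and pig (54 genes), with 1 library per stage and species. Thin lines are single members, the thick line is their median and the band holds the middle 50% of them; the median goes from 7.30 to 21.0 RPM in cow, and in pig it dips to 5.19 RPM at the 2-4 cell stage before reaching 33.2 RPM in the blastocyst.

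Changes between stages are differences of log2(RPM + 1) within a species, which understate the change of genes at low levels. A gene was compared where it reached 1 RPM in one of both stages, and it is said to have risen or fallen where the difference was 2 or more, 4-fold on that scale. From oocyte to blastocyst, 21 of 75 cow members compared rose and 1 fell. Among all 12695 cow genes compared, 22.5% rose and 18.8% fell, so the share of members that rose (28.0%) was near the background, while that of members that fell (1.33%) was below it. Scaled to gene reads outside the mitochondrial chromosome, 35 of 76 cow members (46.1%) rose and 0 fell, beside 28.7% and 16.6% of all genes on that scale. In pig 23 of 54 members (42.6%) rose and 2 (3.70%) fell, beside 27.2% and 20.0% of 12501 genes. The median member differed by 1.18 in cow, against 0.17 for all genes, and by 1.70 in pig, against 0.43. Differences above 0 were seen for 54 of 75 cow members and 46 of 54 pig members. In cow 6641 of the 12695 genes compared also lay above 0, and the pig count for all genes is not given here. With a floor of 3 reads per library set under members and genes, the medians were 1.14 and 1.58 for members and 0.17 and 0.31 for all genes. Other scalings moved the median of all genes by up to 0.41, and the members' median stayed 0.93 to 1.17 above it in cow and 1.20 to 1.51 above it in pig over the 3 scalings and an equal-depth draw tried.

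Step by step, the species differed in where the changes lay. In cow no member rose or fell between the oocyte and the 2-4 cell embryo, where 0.188% of all genes rose and 0.196% fell. Between the 2-4 and 8-16 cell embryos 10 of 73 cow members rose and 4 fell, against 13.0% and 14.9% of all genes. Here the shares that rose were alike, and the medians lay at 0.11 for members and at -0.44 for all genes. The next step, to the morula, had 3 members risen and 0 fallen of 75 (6.92% and 5.65% of all genes), and the last, to the blastocyst, had 2 risen and 2 fallen of 76 (12.5% and 11.7%). All 4 of these shares lay below those of all genes.

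In pig 5 of 47 members fell and 0 rose at the first step, where 2.29% of all genes fell and 3.89% rose. The members' median at that step was -0.64, against -0.14 for all genes. Between the 2-4 and 8-16 cell stages 3 of 48 rose and 0 fell (4.82% and 0.725% of all genes), and the members' median of 0.28 turned to -0.04 with median scaling and to -0.10 with quantile normalisation. The step to the morula had 12 of 51 risen and 0 fallen (12.5% and 12.1%), with a median of 1.28 against 0.18. Between morula and blastocyst 9 of 54 rose and 0 fell (14.4% and 14.6%). The 5 pig members that fell at the first step and the 3 that rose at the second all overlap another gene on the opposite strand. At the first step the partners of MRPL21, MRPL37, MRPL39 and MRPS18A were not lower. IGHMBP2, of MRPL21, had no read in either library, and the MRPL37 partner went from 0 to 0.242 RPM. JAM2, of MRPL39, went from 0 to 4.35 RPM and RSPH9, of MRPS18A, from 0.592 to 0.967 RPM. For MRPS18C, ABRAXAS1 went from 5.03 to 0.967 RPM and HELQ from 43.8 to 59.7 RPM. At the second step RSPH9, ABRAXAS1 and the MRPS6 partner were higher and HELQ lower. The part of shared reads in these changes was not tested.

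**Figure D2:**
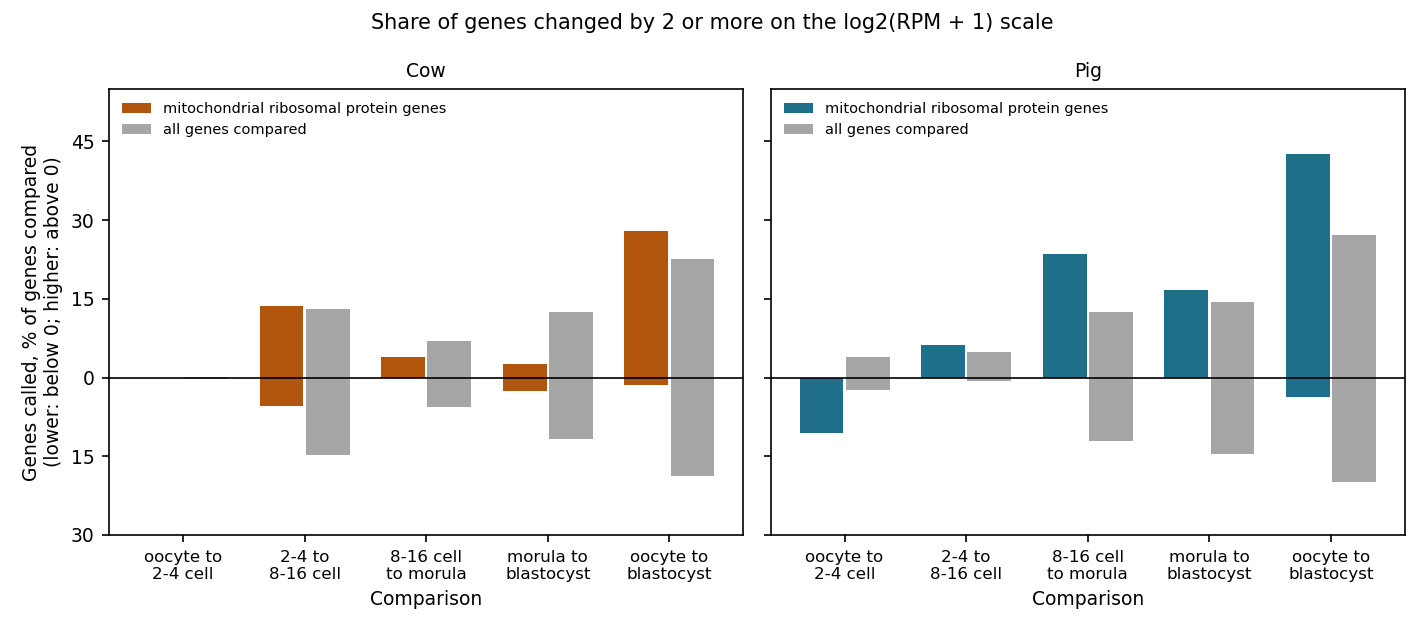
Percentage of genes compared that rose (bars above 0) or fell (bars below 0) by 2 or more on log2(RPM + 1), at each step and over the whole course, for members and for all genes, in cow and pig. In cow no bar can be seen at the first step, where 0 members and under 0.2% of genes changed either way, and the members' bar is tallest over the whole course, where 28.0% rose; in pig the members' bars below 0 appear at the first step (5 of 47) and over the whole course (2 of 54).

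Most members were lowest early and highest late. The level was highest in the blastocyst for 31 of 76 cow members with reads and for 34 of 54 pig members, and in the morula for 19 and 15. The 2-4 cell stage was the highest point for 15 cow members and for 1 pig member, and the lowest point for 13 cow members and for 30 pig members. The lowest level lay in the oocyte for 32 cow members and 11 pig members. Neither a step nor the whole course passed the 4-fold size for 44 of 77 cow members and 22 of 54 pig members. The same tallies for all genes are not given here, so these counts are not set against a background.

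The large subunit carries the peptidyl transferase centre, and MRPL27 is the counterpart of the bacterial protein that reaches toward it. In cow MRPL27 (chr19:36934823-36939652, plus strand) stood at 1.42, 0.676, 21.5, 15.1 and 34.3 RPM from oocyte to blastocyst. In pig (chr12:26663913-26670145, minus strand) it had no read in the oocyte, then 0.483, 0.947, 3.66 and 27.4 RPM. It rose in both species over the whole course, by 24.2-fold in cow (11.6 to 60.5) and by at least 30.8-fold in pig, taking 3 reads per library as the floor. The cow gene rose at the step to the 8-16 cell stage (3.75), while the pig gene rose only at the step to the blastocyst (2.60). Neither gene overlaps another row.

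MRPL12 and MRPL10 form the stalk that recruits translation factors, and MRPL11 is the protein at its base. Cow MRPL12 stood at 1.83, 3.60, 5.15, 5.13 and 14.8 RPM from oocyte to blastocyst, and pig MRPL12 had reads only in the blastocyst, 13 of them (3.49 RPM). Both rose, by 8.11-fold in cow (4.19 to 18.0) and by at least 3.92-fold in pig. The pig call held in 4 of 7 alternatives of pseudocount, scaling, depth and repeated rows (differences of 0.76 to 2.99). Of these 7, a pseudocount of 0.5 RPM and summing repeated rows could not remove a call of any member. Cow MRPL11 was at 1.83, 2.48, 1.84 and 2.82 RPM through the morula and at 22.7 RPM in the blastocyst, so its rise of 12.4-fold (6.47 to 27.4) came at the last step. Pig MRPL11 differed by 1.17, from 3.85 to 9.92 RPM. Cow MRPL10 differed by 1.80, from 2.84 to 12.3 RPM, and it lies wholly within SP2 on the other strand.

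At the exit side of the large subunit, MRPL45 contacts the inner membrane into which new proteins are inserted, and MRPL24 sits near the mouth of the tunnel. Cow MRPL45 was at 5.07 and 5.63 RPM in the first 2 libraries and at 28.0, 25.7 and 21.4 RPM in the last 3, and it rose at the step between them. Pig MRPL45 was at 5.33, 0.967 and 3.16 RPM before the morula, and at 24.3 and 37.8 RPM from it on. It rose at the step to the morula and, by 7.09-fold (4.33 to 12.3), over the whole course. MRPL44, which resembles an RNase III enzyme, was at 33.5 and 20.9 RPM in cow oocyte and blastocyst and at 18.1 and 30.6 RPM in pig, neither beyond 4-fold. Pig MRPL44 did rise between morula and blastocyst, by 2.17. It lies wholly within WDFY1 on the other strand, which went from 57.9 to 98.9 RPM at that step. In pig MRPL24 went from 1.48 RPM to 27.9 RPM; it shares 37.2% of its span with RRNAD1, which went from 2.37 to 28.2 RPM.

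In the small subunit, MRPS12 is the counterpart of a protein at the decoding centre. It was at 0.609, 0.225, 2.58, 3.33 and 5.71 RPM in cow and 0, 0.242, 0.632, 3.33 and 5.09 RPM in pig. It rose over the whole course in both, by a ratio of 9.39 in cow (3.1 to 46.5, from 3 oocyte reads) and by at least 5.74-fold in pig. Pig MRPS12 lies wholly within ENSSSCG00000031623 on the other strand, which went from 17.8 to 12.9 RPM. The cow call held in 4 of the 7 alternatives (differences of 0.93 to 2.68) and the pig call in 6. MRPS24, a protein near the entry of the mRNA channel, had the largest difference among cow members, 4.32, from 3 reads (0.609 RPM) in the oocyte through 1.58, 11.6 and 24.6 to 31.2 RPM, a ratio of 51.2 (17.4 to 249). Pig MRPS24 differed by 1.83, from 12.7 to 47.7 RPM. Cow MRPS28, the bacterial S1 counterpart, was at 6.08, 8.56, 25.4, 113 and 77.6 RPM, and pig MRPS28 at 11.2, 18.8, 15.2, 58.9 and 97.1 RPM. Both rose, by 12.8-fold (8.88 to 19.0) and 8.63-fold (6.17 to 12.4), and both were high from the morula on. MRPS27, a pentatricopeptide repeat protein, lay between 41.4 RPM (oocyte) and 133 RPM (morula) in cow, within 4-fold.

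Other cow members with large rises from oocyte to blastocyst were MRPL21 (2 oocyte reads; 0.406 to 12.3 RPM), MRPS18A (2.03 to 27.6 RPM) and MRPL55 (2.43 to 28.1 RPM, sharing 8.75% of its span with GUK1). Those nearest to the members' median profile in cow, by correlation over the 5 stages, were MRPS23, MRPL12 and MRPS26. MRPS23 went from 3.45 to 28.0 RPM and MRPS26 from 0.406 RPM (2 reads) to 9.87 RPM, and both rose. In pig the largest rises after MRPS6 were those of MRPS11 (0.296 to 37.0 RPM, from 1 oocyte read), MRPL27, MRPL49 (4.44 to 123 RPM), MRPL52 (0.296 to 27.9 RPM, from 1 oocyte read) and MRPL24. Pig MRPL49 lies wholly within ENSSSCG00000039740 on the other strand, which went from 59.8 to 188 RPM. MRPL46, MRPL45 and MRPL39, all of the large subunit and specific to mitochondria, followed the pig median most closely. Pig MRPL46 stood at 15.4, 5.07, 15.5, 39.3 and 63.0 RPM, short of the 4-fold size over the whole course, with a difference of 1.96.

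From oocyte to blastocyst 21 of 75 cow members had differences below 0, and 1 of them fell by the 4-fold rule. MRPS31, MRPL47 and MRPS18C lay farthest from the median profile in cow, and their levels were highest early. MRPS31 stood at 140, 146, 83.2, 89.5 and 41.9 RPM, a difference of -1.71 over the whole course, and MRPL47 at 80.5, 77.9, 63.7, 50.3 and 44.0 RPM, a difference of -0.86. Neither passed the 4-fold size. The 4 cow members that fell between the 2-4 and 8-16 cell stages were MRPL43 (13.1 to 1.84 RPM), MRPS2 (14.6 to 2.21 RPM), MRPL38 (20.7 to 4.23 RPM) and MRPL54 (6.76 to 0.920 RPM). None of the 4 passed the 4-fold size with a pseudocount of 5 RPM, and the call for MRPL38 held in 3 of the 7 alternatives. MRPL54 rose again from 2 reads in the morula (0.513 RPM) to 6.63 RPM in the blastocyst, and MRPL43 shares 73.8% of its span with SEMA4G.

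The 2 pig members that fell over the whole course were MRPL13 and MRPS14, both with bacterial counterparts. Pig MRPS14 (chr9:117097842-117137118, minus strand), a protein of the head of the small subunit, was at 112, 81.2, 54.6, 21.3 and 24.1 RPM, and it fell by 4.64-fold (3.68 to 5.90). It overlaps no other row. Pig MRPL13 was at 135, 62.6, 61.9, 75.3 and 23.1 RPM, and it fell by 5.84-fold (4.63 to 7.44). It shares 68.6% of its span with MTBP, which was at 120, 72.7, 88.4, 137 and 46.9 RPM. Neither gene fell in cow: MRPS14 was at 10.6 RPM in the oocyte and 36.8 RPM in the blastocyst, a difference of 1.71, and MRPL13 at 7.10 and 22.1 RPM, a difference of 1.51. The species difference in these changes was not tested, as there was 1 library per stage. MRPS26 also stood apart in pig, between 35.3 and 67.7 RPM in all 5 libraries with no rise.

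**Figure D3:**
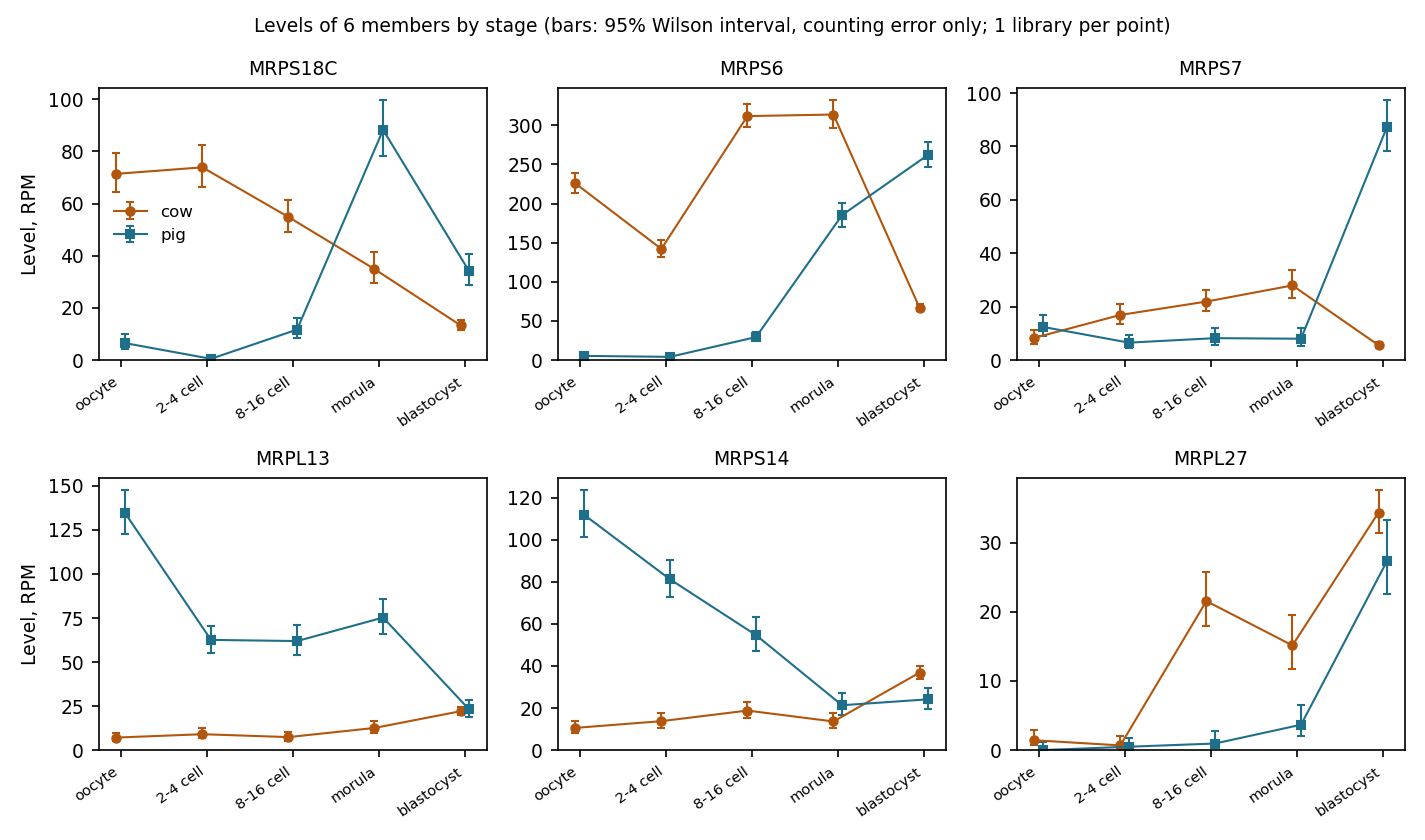
Level (RPM, linear axis from 0) of 6 members by stage in cow and pig, with 95% Wilson intervals for counting error and 1 library per point. MRPL27 is higher in the blastocyst than in the oocyte in both species; MRPS18C is at 71.4 RPM in the oocyte and 13.3 RPM in the blastocyst of cow and at 6.51 and 34.0 RPM in pig, MRPS6 at 226 and 66.8 RPM in cow and 5.33 and 262 RPM in pig, and MRPS14 and MRPL13 fall in pig.

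MRPS18C is 1 of 3 mammalian relatives of a single bacterial protein: MRPS18B and MRPS18C are built into the small subunit and MRPS18A into the large one. Cow MRPS18C (chr6:100006745-100011712, plus strand) was at 71.4, 73.9, 54.9, 34.9 and 13.3 RPM, and it fell by 5.36-fold (4.48 to 6.43), the one cow member to fall over the whole course. Scaled to gene reads outside the mitochondrial chromosome its difference was -1.98, short of the 4-fold size. Pig MRPS18C (chr8:135017007-135026724, minus strand) was at 6.51, 0.483, 11.7, 88.3 and 34.0 RPM, and it rose by 5.23-fold (3.31 to 8.64), a call that held in 4 of the 7 alternatives. Opposite calls in the 2 species were found for this 1 member of the 54 compared in both, beside 3.16% of 8566 shared symbols. In pig 64.9% of the gene's span is shared with ABRAXAS1 on the other strand, a DNA repair gene with 5.03, 0.967, 13.9, 87.9 and 38.3 RPM, almost the same values as MRPS18C. How the authors' counting treated strand is not given in the sources used here, so reads of the 2 pig genes cannot be told apart. Cow MRPS18C overlaps no row; ABRAXAS1 is its next row downstream there and was at 67.7, 83.6, 29.5, 29.5 and 14.5 RPM.

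MRPS18A rose in both species, by 13.6-fold in cow (7.33 to 28.6) and by 11.9-fold in pig (7.71 to 19.3). It was at 2.03, 4.51, 2.21, 13.1 and 27.6 RPM in cow and at 6.51, 0.725, 10.7, 28.0 and 77.5 RPM in pig, where it shares 8.68% of its span with RSPH9. MRPS18B rose in pig, from 2.07, 1.45 and 1.58 RPM to 16.7 and 17.4 RPM, and lay between 14.3 and 28.0 RPM in all cow libraries. In cow, then, MRPS18A rose, MRPS18B did not pass the 4-fold size and MRPS18C fell.

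MRPS6 and MRPS7, both small-subunit proteins with bacterial counterparts, were the cow members that fell between morula and blastocyst. Cow MRPS6 (chr1:669920-733729, minus strand) was at 226, 142, 312, 314 and 66.8 RPM. Its difference of -2.21 at the last step was a fall, and that of -1.74 over the whole course was not. Pig MRPS6 (chr13:197688331-197756771, plus strand) was at 5.33, 4.11, 29.4, 185 and 262 RPM and rose by 49.2-fold (31.0 to 83.4), the largest difference of any pig member (5.38). It shares 51.0% of its span with ENSSSCG00000032547, which went from 4.74 to 71.9 RPM. Scaled to gene reads outside the mitochondrial chromosome neither cow gene fell by 4-fold at the last step (differences of -1.94 for MRPS6 and -1.95 for MRPS7). On that scale MRPL41 did (-2.04). Cow MRPS7 was at 8.32, 16.9, 21.9, 28.0 and 5.57 RPM, and pig MRPS7 at 12.4, 6.52, 8.21, 7.99 and 87.4 RPM. Between morula and blastocyst MRPS7 fell by 2.14 in cow and rose by 3.30 in pig on the log2(RPM + 1) scale, where 1.37% of the shared symbols had opposite calls. Pig MRPS7 lies wholly within the span of MIF4GD on the other strand, which was at 17.3 RPM in the morula and 94.9 RPM in the blastocyst.

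Overlap with other genes was common in the pig table and rare in the cow table. By span, 27 of 54 pig members and 4 of 77 cow members shared at least 1 base with another row, each time on the other strand. Values of both partners were not always alike: pig MRPL52 lies wholly within SLC7A7 and had 1 read (0.296 RPM) in the oocyte where SLC7A7 had 113 RPM. Other partners moved with their member, such as ABRAXAS1 with MRPS18C, RRNAD1 with MRPL24 and MIF4GD with MRPS7. No tally over the 27 pig members is given here, and the part of shared reads was not tested. Among the 27 pig members that overlap no row, 10 rose and 1 fell from oocyte to blastocyst, beside 26.1% and 21.5% of all pig genes without overlap. Among the 27 that overlap, 13 rose and 1 fell, beside 29.3% and 17.0% of all pig genes with overlap. The medians were 1.42 without overlap and 1.86 with it, or 1.34 and 1.69 with the floor of 3 reads. No member without overlap rose or fell in pig at the first step (23 compared) or at the second (24 compared). At the first step 3.89% of all genes rose and 2.29% fell, and at the second 4.82% and 0.725%. At the step to the morula 5 of 25 rose (20%, beside 12.5% of all genes). At the step to the blastocyst 4 of 27 rose (14.8%, beside 14.4%).

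A few members have roles or records that set them apart. MRPS30, which despite its name belongs to the large subunit, was at 26.6, 25.5, 26.0, 11.5 and 20.5 RPM in cow and at 77.0, 49.3, 63.5, 98.6 and 36.5 RPM in pig, with no change of 4-fold. MRPS36 is now placed with the oxoglutarate dehydrogenase complex rather than the mitoribosome, and in cow it was at 17.6 RPM in the oocyte and 9.31 RPM in the blastocyst. Cow MRPL33 had no read in any library, which allows up to 0.212 RPM in the deepest one. Its 2 rows in the cow table, on chromosomes 13 and 14, span 198 bases each, and the RefSeq annotation of ARS-UCD2.0 places the gene on another chromosome, so these rows say nothing of the gene's level.

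By origin, 16 of 44 cow members with a bacterial counterpart rose and 1 fell from oocyte to blastocyst (median 1.71, or 1.62 with the floor of 3 reads), and 5 of 30 members specific to mitochondria rose and 0 fell (median 0.76). In pig the order of the medians was the other way round. There 12 of 30 with a bacterial counterpart rose and 2 fell (median 1.58, or 1.5 with the floor), and 11 of 24 specific to mitochondria rose and 0 fell (median 1.91). By subunit, 13 of 48 large-subunit and 8 of 26 small-subunit members rose in cow, and 15 of 35 and 8 of 19 in pig. Among all genes compared 22.5% rose in cow and 27.2% in pig. The shares risen of the cow large (27.1%) and small (30.8%) subunits were near that background, and that of the cow members specific to mitochondria (16.7%) was below it.

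Side by side, 39 of the 54 members compared in both species (72.2%) had the same sign of change from oocyte to blastocyst, against 68.5% of 8566 shared symbols. In both, 9 members rose: MRPL27, MRPL17, MRPS18A, MRPS28, MRPL48, MRPS12, MRPL36, MRPL12 and MRPL1. Of these, MRPL27, MRPS18A and MRPS28 kept the call in both species in all 7 alternatives. In cow MRPL36 kept it in 3 and MRPS12 in 4, and in pig MRPL1, MRPL12 and MRPL36 kept it in 4. These counts include a pseudocount of 0.5 RPM and summed repeated rows, under which no call could be lost. The 9 members are 52.9% of the 17 shared members that rose in cow and 39.1% of the 23 that rose in pig. Among all shared symbols 11.6% rose in both, 54.3% of those that rose in cow and 43.2% of those that rose in pig, so the overlap among members was near that of all genes. Across the 54 members the changes in cow and pig had a Spearman correlation of 0.12, and across all shared symbols one of 0.49. Both describe genes within single libraries and not replicates, and the members' changes span a narrower range than those of all genes. MRPL1, a large-subunit protein, rose in both species but at different steps. It was at 4.87, 5.63, 63.7, 71.0 and 30.9 RPM in cow and at 6.51, 5.32, 13.3, 52.6 and 30.8 RPM in pig. Its value was highest in the morula of both, but in cow the 8-16 cell and morula values differed by only 0.16. The cow rise came at the step to the 8-16 cell stage (3.29). The largest pig step, to the morula, was 1.91, short of the 4-fold size.

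**Figure D4:**
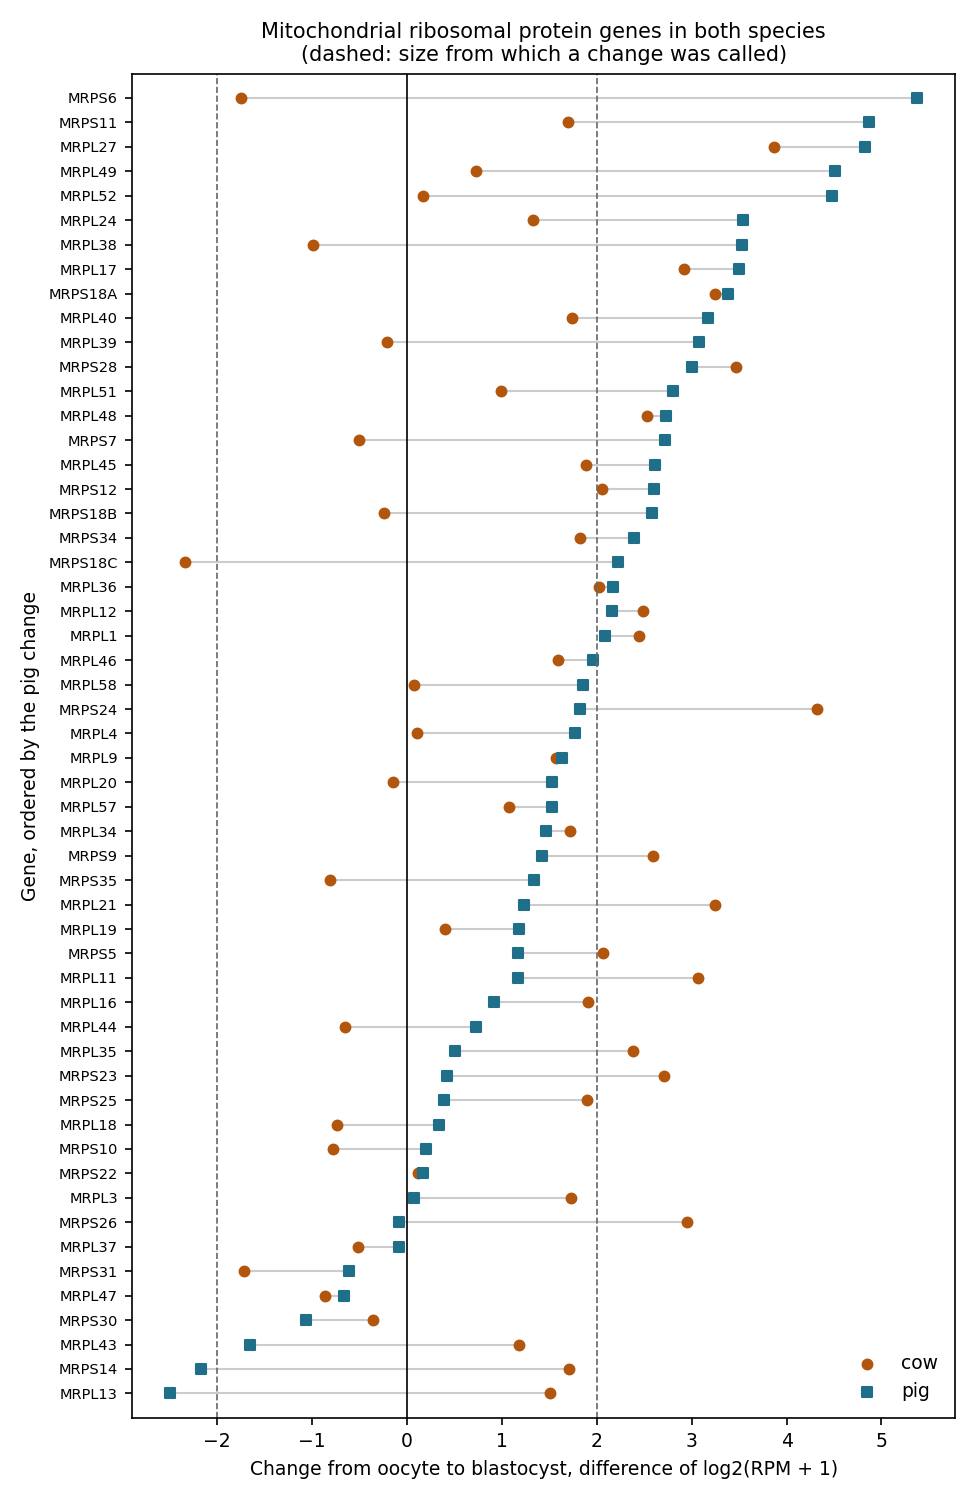
Change from oocyte to blastocyst, as a difference of log2(RPM + 1), for the 54 members of both tables (1 row each, ordered by the pig change), with cow as circles and pig as squares and 1 library per stage. Dashed lines mark the 4-fold size; 9 members have both points beyond 2, and MRPS18C has points at -2.34 in cow and 2.22 in pig.

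Some mitoribosomal proteins go by other symbols, and of these 1 of 5 rose in cow (median 1.41), 3 of 4 rose in pig (median 3.53, or 3.07 with the floor) and 0 fell in either species. Among all genes compared 22.5% rose and 18.8% fell in cow, and 27.2% and 20.0% in pig. The cow share risen (20%) was thus near the background. AURKAIP1 rose in both, with 1.62 and 16.5 RPM in oocyte and blastocyst of cow and 2.37 and 50.4 RPM in those of pig. DAP3, a small-subunit GTP-binding protein also known from cell death, rose in pig from 3.55 to 90.9 RPM and differed by 1.41 in cow (6.09 to 17.8 RPM). PTCD3 differed by 0.55 in cow and 1.83 in pig, and GADD45GIP1 by 0.69 in cow. CHCHD1 rose in pig, where it had no read before the morula, and differed by 1.58 in cow.

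The counts of related genes that follow stand beside 22.5% risen and 18.8% fallen of all genes in cow and 27.2% and 20.0% in pig. Of the factors that assemble the mitoribosome, 6 of 26 (23.1%, near the background) rose and 0 fell in cow (median 0.62), and 7 of 19 rose and 1 fell in pig (median 1.65). The rRNA methyltransferase METTL15 (5.48 to 52.6 RPM in cow, 6.81 to 62.7 RPM in pig), METTL17 and RBFA rose in both. Among mitochondrial translation factors and membrane insertion proteins, 2 of 17 (11.8%, below the background) rose and 1 fell in cow (median 0.78). In pig 5 of 18 (27.8%) rose and 1 fell (median 1.05). COX18, which helps insert a respiratory chain subunit, rose in both. MTIF2 had opposite calls, -2.23 in cow (78.7 to 15.9 RPM) and 5.28 in pig (14.5 to 601 RPM), where it overlaps another gene. Of the mitochondrial aminoacyl-tRNA synthetases, which charge the tRNAs used on the mitoribosome, 7 of 19 rose and 1 fell in cow (median 1.52) and 8 of 17 rose and 0 fell in pig (median 1.65); LARS2, NARS2, VARS2 and MARS2 rose in both. LARS2 was at 1.83 RPM in the oocyte and 37.2 RPM in the blastocyst of cow, and at 7.40 and 125 RPM in pig.

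For the replication and transcription of mitochondrial DNA, 3 of 14 genes rose and 3 fell in cow (median -0.41), and 3 of 11 rose and 1 fell in pig (median 1.43). TFAM, which packages that DNA and starts its transcription, was at 1.01, 2.03, 39.8, 38.0 and 23.0 RPM in cow and at 0.296, 6.77, 45.5, 160 and 82.3 RPM in pig, and rose in both. TEFM, the elongation factor of mitochondrial transcription, fell in both, from 32.5 to 5.50 RPM and from 65.4 to 8.04 RPM. Of the nuclear regulators of mitochondrial genes, 3 of 8 rose and 1 fell in cow and 3 of 8 rose and 0 fell in pig, with NRF1 (4.87 to 36.9 RPM and 10.1 to 54.7 RPM) and PPARGC1B risen in both.

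The members' changes were small beside those of 2 related sets added after the files were seen. Of the cytosolic ribosomal protein genes 72 of 79 rose in cow and 45 of 47 in pig, with medians of 3.55 and 5.97, and 0 fell. Of the nuclear genes for respiratory chain subunits, 51 of 76 rose and 1 fell in cow (median 2.76) and 39 of 46 rose and 1 fell in pig (median 3.80). The members' medians of 1.18 and 1.70 lay below both in each species. With the floor of 3 reads the respiratory chain medians were 2.73 and 3.17, and in pig those of the assembly factors and the synthetases were 1.47 and 1.48. Both sets and the members have processed copies elsewhere in mammalian genomes, and how reads shared with such copies were counted is not given in the sources used here.

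**Figure D5:**
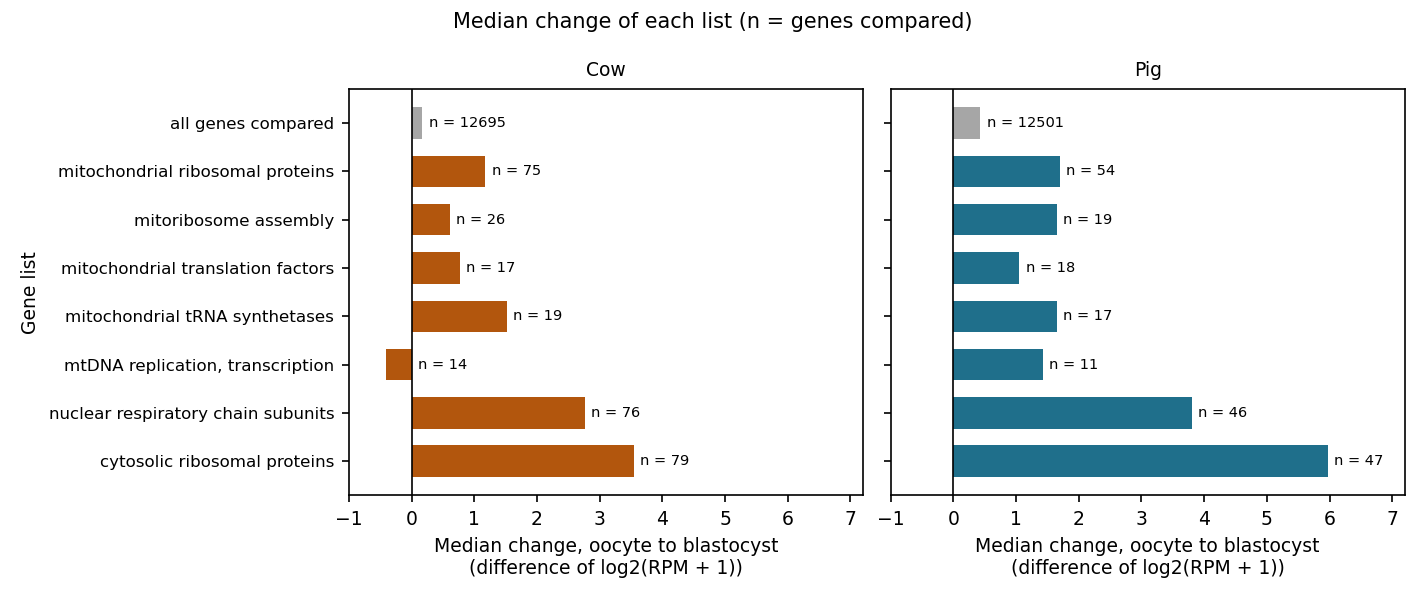
Median change from oocyte to blastocyst, as a difference of log2(RPM + 1), for the members, all genes compared and the related gene lists, in cow and pig, with 1 library per stage. Mitochondrial ribosomal protein genes (1.18 and 1.70) lie above all genes (0.17 and 0.43) and below the cytosolic ribosomal protein genes (3.55 and 5.97).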

How the data were processed

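Per the labels' protocols, total RNA from oocytes and embryos was isolated with a kit for very small samples, amplified with the Ovation RNA-Seq system and made into libraries by PCR. The submitters' processing notes name Trim Galore 0.6.4, HISAT2 2.1.0 and the builds UMD3.1 and Sscrofa11.1, without roles. Counting, annotation, strand handling and duplicate removal are not given in the sources used here. Each species has 1 table of deposited log2 values. Their steps show reads per 1000000 library reads, with 0 reads written as 0.9 of a read, and whole reads were recovered within 0.02 reads for 99.97% to 100% of values in each library. Coordinates are gene spans of the authors' tables.

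Values were raised back to RPM, 1 row per symbol was kept, and differences of log2(RPM + 1) were taken within a species (python 3.11.15, numpy 2.4.6, pandas 2.3.3, scipy 1.17.1; figures with matplotlib 3.10.9). Level intervals are Wilson and fold intervals exact conditional binomial, both 95% and for counting error only, since amplified reads are not independent molecules. Folds against 0 reads use a floor of 3 reads per library. With 1 library per group no test was run, and the calling step was tested on simulated data. Named members were the largest changes per species and step, opposite calls, fixed roles, and those nearest to and farthest from the median profile; others are named where a count needed them, after their values were seen. The members and lists were chosen with earlier results of these data known. Alternatives covered the pseudocount, scaling, depth, minimum level, threshold, repeated symbols, overlapping members and MRPS36.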

Additional observations from a re-analysis of the deposited data

Results flagged for a closer look

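MRPS18C changed in opposite directions in the 2 species from oocyte to blastocyst, by -2.34 in cow and by 2.22 in pig on the log2(RPM + 1) scale. MRPS7 did so between morula and blastocyst, by -2.14 in cow and by 3.30 in pig. With 1 library per stage and species, neither difference was tested. Scaled to gene reads outside the mitochondrial chromosome both cow falls missed the 4-fold size, at -1.98 for MRPS18C and -1.95 for MRPS7. The pig rise of MRPS18C held in 4 of 7 alternatives and that of MRPS7 in 7. Among the 7, a pseudocount of 0.5 RPM and summed repeated rows could not remove either call. The pig gene overlaps another gene on the other strand in both cases, ABRAXAS1 for MRPS18C and MIF4GD for MRPS7, and the pig partners changed by 2.71 and 2.39 over the same comparisons. The cow genes overlap no row.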

How the results depend on the processing

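No called change of a named member turned to the opposite direction under any of its 7 alternatives. With mitochondrial reads left out of the library totals the cow sum from morula to blastocyst turned from 0.790-fold to 1.03-fold. Scaled to gene reads outside the mitochondrial chromosome it stayed lower in the blastocyst than in the morula. The pig median of the second step turned below 0, and the signs of 9 uncalled changes of named members turned under 1 to 3 of 7 alternatives. In all, 336 of 420 values of counts, medians and sums and 440 of 504 changes of named members stayed close to those reported, and 84 and 64 moved. Some values could not move under some settings. Thresholds of 1 and 3 leave medians and sums as they are, and dropping the minimum level leaves the calls. Leaving out MRPS36 changes nothing in pig, and summing repeated rows changes no member. The counts that stayed close therefore overstate how far the results were put to a test. Counts are given as risen or fallen members for the whole course and the steps. With a threshold of 1, cow members risen and fallen were 39 and 3 from oocyte to blastocyst, 6 and 2 at the first step, 23 and 11 at the second, 16 and 3 at the third and 18 and 14 at the last; pig had 37 and 4 over the whole course, 18 fallen at the first step, 11 and 1 at the second, 36 and 1 at the third and 21 and 5 at the last. With a threshold of 3, cow had 7 risen and 0 fallen over the whole course, 2 and 0 at the second step, 0 risen at the third and 0 and 0 at the last; pig had 12 and 0 over the whole course, 0 fallen at the first step, and 1, 2 and 3 risen at the second, the third and the last. A pseudocount of 5 RPM, which draws low levels together, left cow with 6 risen over the whole course, 2 risen and 0 fallen at the second step, 0 risen at the third and 0 risen and 1 fallen at the last; pig kept 13 risen over the whole course, 0 fallen at the first step and 0, 6 and 4 risen at the others, with a median of 1.06 at the third. A pseudocount of 0.5 RPM gave 5 cow members risen at the third step and 4 at the last. Beside all genes over the whole course, cow members risen were 52% against 38.6% with a threshold of 1. They were 9.33% against 11.6% with a threshold of 3, and 8% against 11.6% with the pseudocount of 5 RPM. The cow share thus lay above that of all genes in the first case and below it in the others. In pig the shares were 68.5% against 42.8%, 22.2% against 15.6% and 24.1% against 15.7%.

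Scaling to gene reads outside the mitochondrial chromosome shifted the median of all cow genes from oocyte to blastocyst by 0.41. It gave 35 cow members risen and 0 fallen over the whole course, 5 risen at the third step, and 5 risen and 1 fallen at the last with a median of 0.42. Sums on that scale were 2276, 2533, 3123, 3608 and 3473 RPM in cow and 1374, 897, 1064, 2677 and 3058 in pig. Median scaling gave 2 cow members fallen at the second step and a median of 0.064 at the first, 3 pig members fallen at the first step, and pig medians of -0.037 and 1.03 at the second and the third. Quantile normalisation gave a cow median of 0.035 at the first step, 1 cow member fallen at the last, and a pig median of -0.10 at the second. The cause of these differences was not tested.

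Leaving out members that overlap another row, which removes 27 of 54 pig members, gave pig 10 risen and 1 fallen over the whole course, 0 fallen at the first step, and 0, 5 and 4 risen at the later ones. Sums without them were 598, 418, 446, 942 and 1027 RPM in pig, and in cow 1507 RPM in the oocyte, 1785 RPM at the 2-4 cell stage and 1694 RPM in the blastocyst. The scaling, depth, minimum and other alternatives left the direction of the oocyte to blastocyst medians as reported. Both promoter motif alternatives were not run, since no promoter sequences were used here. No paired analysis was possible because each group has 1 library. Depth limits members at a few reads: in the pig morula, the shallowest library, a count of 0 allows up to 0.999 RPM.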
